A study of Mus musculus with 96 samples.

Results

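The genes described here are 39 interferon-stimulated genes, chosen by name and matched through their Ensembl mouse identifiers, and all 39 were among the 54532 gene models counted. They were measured in microglia, the resident macrophages of the brain, sorted from wild-type mice as cells positive for the microglial receptor Fcrls and for CD11b and negative for the monocyte marker Ly6C. Each library was made with Smart-seq2, a full-length cDNA method for small inputs, from a small pool of sorted cells. Young mice (3 to 5 months) and old mice (20 to 22 months) were either controls or had abdominal surgery, and the libraries were labelled with a 6 h or a 48 h time point. Every animal gave 1 library from the hemisphere and 1 from the hippocampus, so 48 animals gave 96 libraries. The young animals numbered 4 in each combination of treatment and time. The old animals numbered 8 controls and 7 operated animals at 6 h, and 8 controls and 9 operated animals at 48 h. Replicates within a group were therefore separate animals. The labels name no strain or sex and do not describe what the control animals underwent.

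Type I interferons are secreted after cells sense foreign or misplaced nucleic acid, and they act through a surface receptor whose kinases activate transcription factors that include Stat2. Together with Irf9 these form a complex that binds the interferon-stimulated response element, a DNA sequence near the start sites of many antiviral genes. The products of those genes block viral entry, degrade viral RNA, tag proteins with the ubiquitin-like Isg15 or feed back on the pathway, and interferon-responsive microglia are known from the aged, infected and injured brain.

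The stretches around this response element are given for 6 members, because it is the sequence through which the pathway is known to act on its targets. RefSeq promoter windows (GRCm38.p6, 250 bases before to 50 bases after each start site) held 31 of the 39 members. No window was matched for Zbp1, Usp18, Ifi27l2a, Ifi204, Mx1, Rtp4, Oas2 and Parp14. The core, spelled GAAA, then any pair of bases, then GAAA, was searched on both strands with overlapping matches counted. It reads TTTC, any pair of bases, TTTC on the other strand. It occurred in 17 of the 31, which is 54.8%, against 3.99% of all 27025 genes with a window. Each stretch below is read 5′ to 3′ on the gene's strand, with the core matches in capitals. The first group, Bst2 at chr8:71537562-71537627 (minus strand), Ifit3 at chr19:34583348-34583441 (plus strand) and Oas1a at chr5:120907526-120907570 (minus strand), rose with age in the hemisphere.
Bst2: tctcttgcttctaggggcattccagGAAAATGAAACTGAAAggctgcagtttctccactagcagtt
Ifit3: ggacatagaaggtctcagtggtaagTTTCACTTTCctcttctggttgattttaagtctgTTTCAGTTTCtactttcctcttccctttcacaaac
Oas1a: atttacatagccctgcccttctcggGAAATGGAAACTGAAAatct
The second group, Isg15 at chr4:156200850-156200921 (minus strand), Oas3 at chr5:120777700-120777759 (minus strand) and Stat2 at chr10:128270251-128270310 (plus strand), did not pass the test of age or had too few counts to be tested.
Isg15: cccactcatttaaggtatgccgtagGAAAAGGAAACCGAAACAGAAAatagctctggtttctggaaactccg
Oas3: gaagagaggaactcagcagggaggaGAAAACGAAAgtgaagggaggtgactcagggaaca
Stat2: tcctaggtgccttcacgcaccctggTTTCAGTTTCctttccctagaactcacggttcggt
Both kinds of promoter carried the core. It was present in 4 of the 8 members with a window that rose with age in the hemisphere (Bst2, Ifit3, Ifitm3 and Oas1a). Of the other 23 members with a window, 13 had it (56.5%). The gamma-activated site TTCNNNGAA, known from genes that respond to type II interferon, was matched in 9 of 31 members (29.0%) against 9.55% of all genes with a window. Such a match describes letters in the window and was not tested as a binding site.

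Library totals ran from 1874168 to 3778939 counts with a median of 2703893. In 6 libraries counts of 1 were rare among the low counts (4.11 to 24.67% of the values from 1 to 3, against at least 42.72% elsewhere), so small counts there move in steps. The summed level of 11 microglial markers was 3820 to 11900 CPM (counts scaled to a common library size of 1e6) in every library, against group medians of 11.8 to 12.2 for 7 monocyte markers and 6.25 to 11.3 for 8 markers of border-associated macrophages. Summed neutrophil markers had group medians of 14.7 to 17.6 CPM and exceeded 60 CPM in 5 libraries, the highest an old hemisphere library at 186. Summed B cell markers had medians of 88.8 to 101 CPM and reached 407 in 1 old hemisphere library. Library names carry a number after the letters FACS, called the sort number here. No label says whether it gives an order or a batch. Young animals had numbers from 41 to 54 at 6 h and from 75 to 90 at 48 h. Of the 32 old animals, 13 had numbers inside these ranges.

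Levels were low for most members. Per kilobase of exon, Lgals3bp (16.6 CPM per kb), Bst2 (15.2), Irf8 (14.9) and Ifi27l2a (14.2) led the mean over the 96 libraries. Cmpk2 (0.249), Ifi44 (0.277) and Rsad2 (0.29) were the lowest. A filter on low counts left 33 of the 39 members testable for age in each region. Ifit1 (mean 2.48 counts per library), Ifitm2 (1.83), Isg15 (3.62), Isg20 (3.17) and Cmpk2 (2.82) were under it in both regions. Rsad2 (3.41) was under it in the hemisphere and Cxcl10 (2.79) in the hippocampus. A member with few counts could pass through its old groups alone, so counts over those that passed describe them and not all 39. Exon bases shared with another annotated gene exceeded 10% in Ifitm2 (40.9%), Ifi35 (16.8%) and Rtp4 (13.9%), and no label says whether the counting used strand. Values of members with close paralogs (Ifitm3, Ifit3, Oas1a, Ifi204, Ifi27l2a, Gbp2, Gbp3, Trim30a and Slfn2) are uncertain to the extent that reads were shared.

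Averaged over treatments and times, 13 members were higher in old than in young hemisphere microglia and none lower: Ifitm3, Ifi27l2a, Sp100, Bst2, Slfn2, Oasl2, Irf7, Ifit3, Oas1a, Oas2, Usp18, Ifi204 and Zbp1 (edgeR quasi-likelihood test, Benjamini-Hochberg adjusted p below 0.05 over all genes tested). That is 39.4% of the 33 tested, beside 1.29% of all 14144 genes called higher and 0.368% called lower. In the hippocampus 5 members were higher and none lower (Ifi27l2a, Ifit2, Lgals3bp, Ifitm3 and Ifit3), 15.2% of 33 beside 0.751% of all 14510 genes higher and 0.214% lower. The median log2 fold change of the members was 0.65 in the hemisphere and 0.48 in the hippocampus, against 0.02 and -0.01 over all genes tested. In both regions 30 of 33 were positive. In hemisphere libraries the mean counts of Ifitm3, Irf7, Oas2 and Zbp1 were 4.12, 4.0, 2.75 and 1.88 in the young. In the old they were 19.5, 15.4, 9.78 and 5.88, so these members passed the count filter mainly through old libraries. The members were also chosen with earlier results of these data known. These shares and medians therefore describe the members that passed and are no test of the set. DESeq2 called 16 in the hemisphere, adding Ifit2, Lgals3bp and Trim30a, and 6 in the hippocampus, adding Rtp4. In pooled cells, fewer cells of a type and less RNA per cell cannot be told apart.

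**Figure D1:**
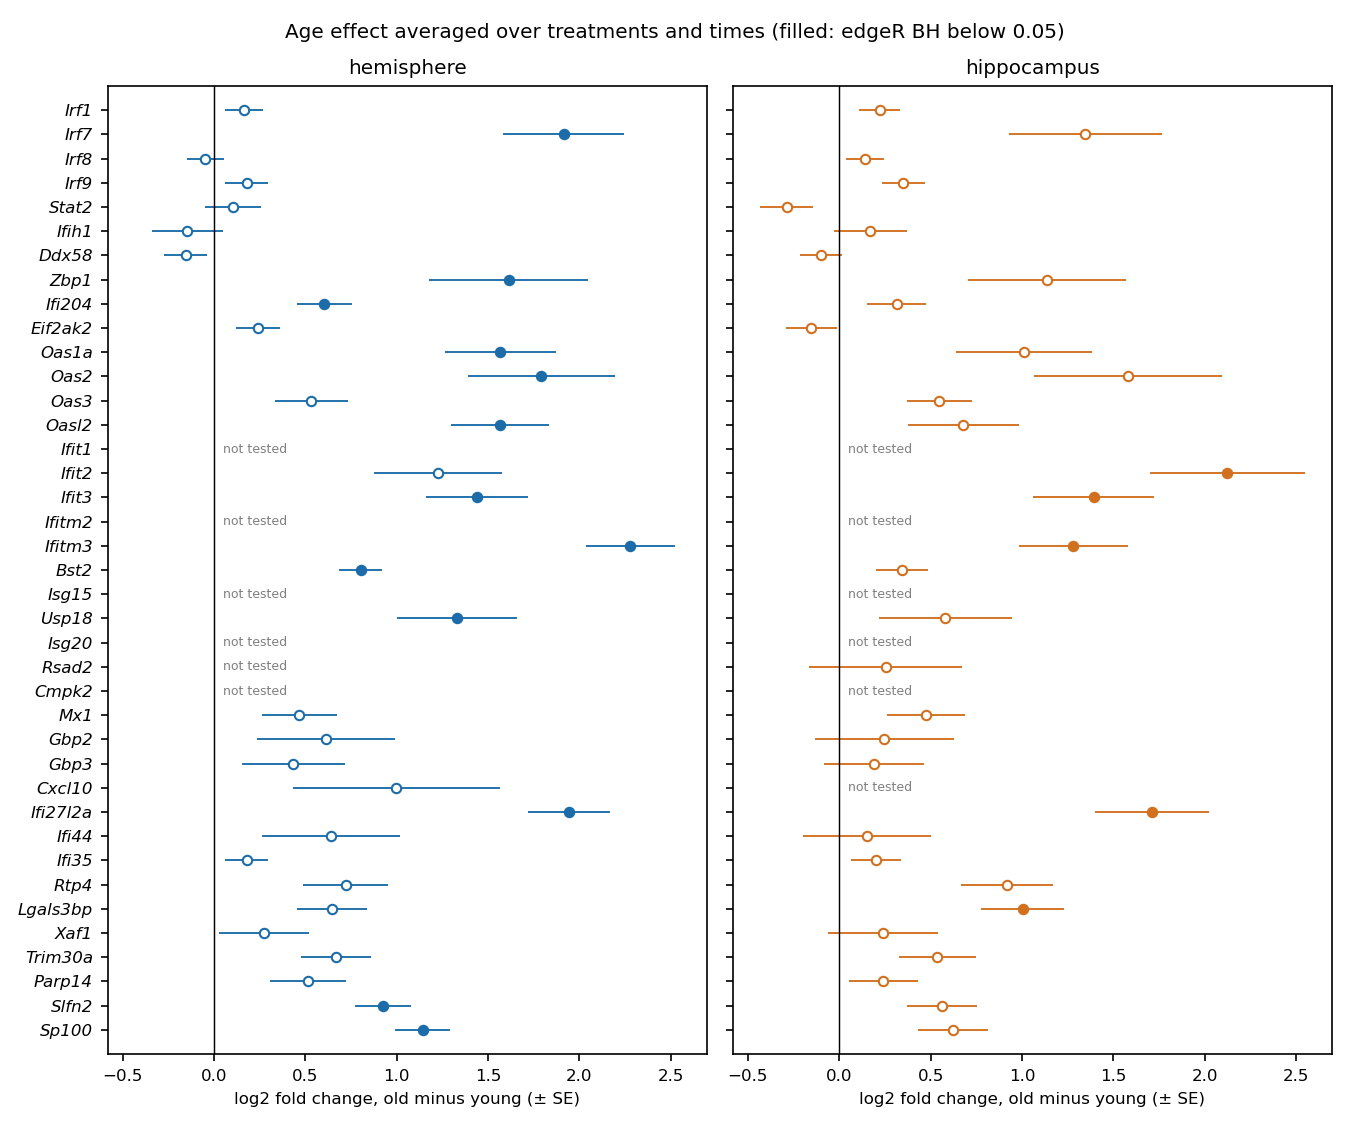
Log2 fold change of each of the 39 genes in old minus young microglia, averaged over both treatments and times, with its standard error; filled points have an adjusted p below 0.05, and genes under the count filter are marked as not tested. Ifitm3 stands farthest right in the hemisphere at 2.28 and Ifit2 in the hippocampus at 2.12, while Irf8, Ddx58, Ifih1 and Stat2 lie near 0.

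Of the 3 membrane restriction factors, both that could be tested rose in the hemisphere. Ifitm3, which sits in endosomal membranes and blocks fusion of entering viruses, ran from 0 to 3.92 CPM in young hemisphere libraries (median 1.22, n = 16) and from 2.53 to 20.1 in old ones (median 6.84, n = 32). The groups barely overlapped, since 29 of 32 old libraries lay above the highest young one. Its log2 fold change was 2.28 ± 0.24 (SE, adjusted p = 4.14e-08). In the hippocampus Ifitm3 ran from 0.366 to 5.78 CPM in the young (median 1.31) and from 0.966 to 14.2 in the old (median 3.25), with a log2 fold change of 1.28 ± 0.30 (adjusted p = 0.0173). There the groups overlapped widely, with only 6 old libraries above the highest young one.

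Bst2, which tethers budding virus particles to the cell surface, ran from 6.02 to 15.3 CPM in young hemisphere libraries (median 10.5) and from 10.1 to 26.7 in old ones (median 17.2). Of the 32 old libraries 23 exceeded every young one, and the log2 fold change was 0.80 ± 0.12 (adjusted p = 1.38e-05). Hippocampal Bst2 ran from 4.15 to 19.5 CPM in the young (median 10.6) and from 4.59 to 24.9 in the old (median 12), largely overlapping, with a log2 fold change of 0.34 (adjusted p = 0.327). Ifitm2, a close relative of Ifitm3, was at 0 in 7 of 16 young and 9 of 32 old hemisphere libraries, and reads shared between these paralogs could be assigned to either.

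Among the oligoadenylate synthetases, which make the messenger that activates RNase L, 3 of 4 rose in the hemisphere and none passed in the hippocampus, where their log2 fold changes were 0.55 to 1.58. Oasl2 ran from 0 to 7.44 CPM in young hemisphere libraries (median 2.43) and from 0.86 to 20.1 in old ones (median 6.92). Only 12 old libraries exceeded every young one, and the log2 fold change was 1.56 ± 0.27 (adjusted p = 0.000193). Hippocampal Oasl2 had medians of 2.13 CPM (range 0.528 to 8.83) and 3.49 CPM (range 0.339 to 12.1), with a log2 fold change of 0.68 (adjusted p = 0.394). Oas1a was also low in the young: it ran from 0 to 7.0 CPM (median 1.93) in young and from 1.45 to 12.2 (median 6.02) in old hemisphere libraries, a log2 fold change of 1.57 ± 0.31 (adjusted p = 0.00106). Oas2 rose by 1.79 (adjusted p = 0.00602). Oas3 did not pass in either region (0.53 with adjusted p = 0.233 in the hemisphere, 0.55 with adjusted p = 0.155 in the hippocampus).

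The IFIT proteins bind viral RNA that lacks the host's cap marks. Ifit3 ran from 0 to 5.88 CPM in young hemisphere libraries (median 3.23) and from 1.08 to 24.0 in old ones (median 7.87), 22 of which exceeded every young one. Its log2 fold change was 1.44 ± 0.28 (adjusted p = 0.000976). In the hippocampus it ran from 0 to 6.1 CPM in the young (median 1.79) and from 1.22 to 22.5 in the old (median 4.74), a log2 fold change of 1.39 ± 0.33 (adjusted p = 0.0217). Among the members tested in the hippocampus, Ifit2 had the highest fold change, 2.12 ± 0.42 (edgeR adjusted p = 0.00327). It rose from a median of 0.382 CPM (range 0 to 1.29) to 1.96 CPM (range 0 to 11.3), with 21 of 32 old libraries above every young one. Its mean was 1.25 counts in young and 5.53 in old libraries, so it passed the count filter through old libraries alone. Of 48 refits without 1 animal, 44 could test it. In the hemisphere Ifit2 missed the threshold (1.23, adjusted p = 0.0567).

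Irf7, the inducible transcription factor that amplifies interferon production, was the only one of the 5 transcription factors among the members to pass. It ran from 0 to 3.21 CPM in young hemisphere libraries (median 1.24) and from 0.362 to 24.8 in old ones (median 5.02), with 25 old libraries above every young one. The log2 fold change was 1.91 ± 0.33 (adjusted p = 0.000223). Hippocampal Irf7 ran from 0 to 4.39 CPM in the young (median 1.27) and from 0 to 10.6 in the old (median 2.47), overlapping, with a log2 fold change of 1.35 that missed the threshold (adjusted p = 0.123). The factors that carry the signal were nearly level in the hemisphere: the 95% intervals of the log2 fold change were -0.05 to 0.41 for Irf9, -0.20 to 0.41 for Stat2, -0.04 to 0.37 for Irf1 and -0.25 to 0.15 for Irf8, a lineage factor of microglia. In the hippocampus Irf9 stood at 0.35 (edgeR unadjusted p = 0.0046, adjusted p = 0.177) and Stat2 at -0.29 (edgeR unadjusted p = 0.0502, adjusted p = 0.469). Irf7 shares 1.2% of its exon bases with Phrf1 on the opposite strand.

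Sensors of foreign nucleic acid split. The cytosolic DNA sensor Ifi204 rose in the hemisphere by 0.60 (adjusted p = 0.0197) and the Z-nucleic acid sensor Zbp1 by 1.61 (adjusted p = 0.0367), while the RNA helicases Ddx58 (RIG-I) and Ifih1 (MDA5) stood at -0.15 and -0.15. Eif2ak2, the RNA-activated kinase PKR, stood at 0.24 (adjusted p = 0.473). No sensor passed in the hippocampus. The Ifi204 call was lost without young control 6 h replicate 4 or without young control 48 h replicate 1 (log2 fold change 0.53 in both refits). The Zbp1 call was lost, at 1.51 to 1.66, without any 1 of 16 animals: young control 6 h replicates 2, 3 and 4, young surgery 6 h replicates 1, 2 and 4, young control 48 h replicates 1, 3 and 4, young surgery 48 h replicates 2 and 4, old control 6 h replicate 8, old surgery 6 h replicates 5 and 7, old control 48 h replicate 2 and old surgery 48 h replicate 5.

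Isg15, the ubiquitin-like modifier that gives the conjugation system its name, was under the count filter for age, and without that filter it was among the 11 members called in the hemisphere. It ran from 0 to 1.24 CPM in young hemisphere libraries (median 0.656) and from 0 to 4.91 in old ones (median 1.57), with 22 of 32 old libraries above every young one. In the hippocampus its medians were 0.828 CPM (range 0 to 3.19) and 0.875 CPM (range 0 to 4.2), and only 2 old libraries exceeded the young range. Usp18, the protease that removes Isg15 from proteins and restrains the receptor, rose in the hemisphere by 1.33 (adjusted p = 0.018) and stood at 0.58 in the hippocampus (adjusted p = 0.614). Of the enzymes of nucleotide and RNA metabolism, only Rsad2 (viperin, which makes a chain-terminating nucleotide) could be tested, in the hippocampus, where it stood at 0.25 (adjusted p = 0.891). None of the 3 GTPases passed in either region, with Mx1, a block to incoming viral ribonucleoproteins, at 0.47 in the hemisphere (adjusted p = 0.382).

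Cxcl10, the chemokine that draws CXCR3-bearing T cells, was sporadic. It was at 0 in 8 of 16 young and 6 of 32 old hemisphere libraries, with ranges of 0 to 7.44 CPM (median 0.167) and 0 to 4.73 CPM (median 0.937) and a log2 fold change of 1.00 (adjusted p = 0.579). In the hippocampus, where it was under the filter, the young ranged from 0 to 0.891 CPM (median 0) and the old from 0 to 4.01 (median 0.864), 16 of them above every young library. The highest single value, 7.44 CPM, belonged to a young control animal.

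Of the 10 remaining members, 3 rose in the hemisphere and 2 in the hippocampus. Ifi27l2a, a small membrane protein, ran from 0.802 to 6.66 CPM in young hemisphere libraries (median 2.61) and from 1.08 to 26.5 in old ones (median 11.2), with 27 of 32 above every young one and a log2 fold change of 1.94 ± 0.23 (adjusted p = 1.38e-07). In the hippocampus it ran from 0.367 to 5.42 CPM in the young (median 1.38) and from 0.917 to 21.6 in the old (median 4.24), a log2 fold change of 1.71 ± 0.31 (adjusted p = 0.00096). It was the member with the lowest adjusted p there. Sp100, a nuclear body protein, ran from 4.28 to 15.3 CPM (median 6.92) in young and from 6.87 to 28.1 (median 17.0) in old hemisphere libraries, a log2 fold change of 1.14 ± 0.15 (adjusted p = 1.6e-06). Slfn2, a regulator of immune cell quiescence, ran from 1.6 to 8.79 CPM (median 6.33) in young and from 4.47 to 22.6 (median 10) in old ones, a log2 fold change of 0.925 ± 0.152 (adjusted p = 9.78e-05). Both overlapped between ages, with 20 and 19 old libraries above every young one. Lgals3bp, a secreted glycoprotein, rose in the hippocampus by 1.00 (adjusted p = 0.014) and stood at 0.65 in the hemisphere (adjusted p = 0.0778).

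Other values moved with the same comparison. In the old hemisphere 5 of 11 microglial markers were called lower, beside 0.368% of all genes. Among them were P2ry12 (log2 fold change -0.42), Gpr34 (-0.48) and the sort gene Fcrls (-0.39). No microglial marker was called lower in the hippocampus. Neutrophil markers tested in the hemisphere were positive in 5 of 5, median 2.53, without a call. Of the 5 libraries above 60 CPM of these markers, 3 were old hemisphere, 1 young hemisphere and 1 young hippocampus. Without these 5 libraries, 11 of 34 members rose in the hemisphere and the same 5 in the hippocampus, and Ifi204 and Zbp1 dropped out. Beyond this refit, the part of these markers in the age difference was not tested. The 3 members shared by both regions (Ifi27l2a, Ifit3 and Ifitm3) were 23.1% of the 13 hemisphere calls and 60% of the 5 hippocampal calls, and both regions came from the same animals.

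The calls were also computed by sort number. With only the 13 old animals whose sort numbers lay among the young ones, 7 members rose in the hemisphere out of 28 tested (Bst2, Ifi27l2a, Ifitm3, Irf7, Oasl2, Slfn2 and Sp100), and in the hippocampus only Ifi27l2a did. Hemisphere Ifitm3 was 6.53 ± 2.56 CPM (SD, n = 13) in those animals and 8.49 ± 4.2 (SD, n = 19) in the other old ones, against 1.53 ± 0.94 (SD, n = 16) in the young. Without the 6 stepped libraries, 14 members rose in the hemisphere and 2 in the hippocampus (Ifi27l2a and Ifit2).

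**Figure D2:**
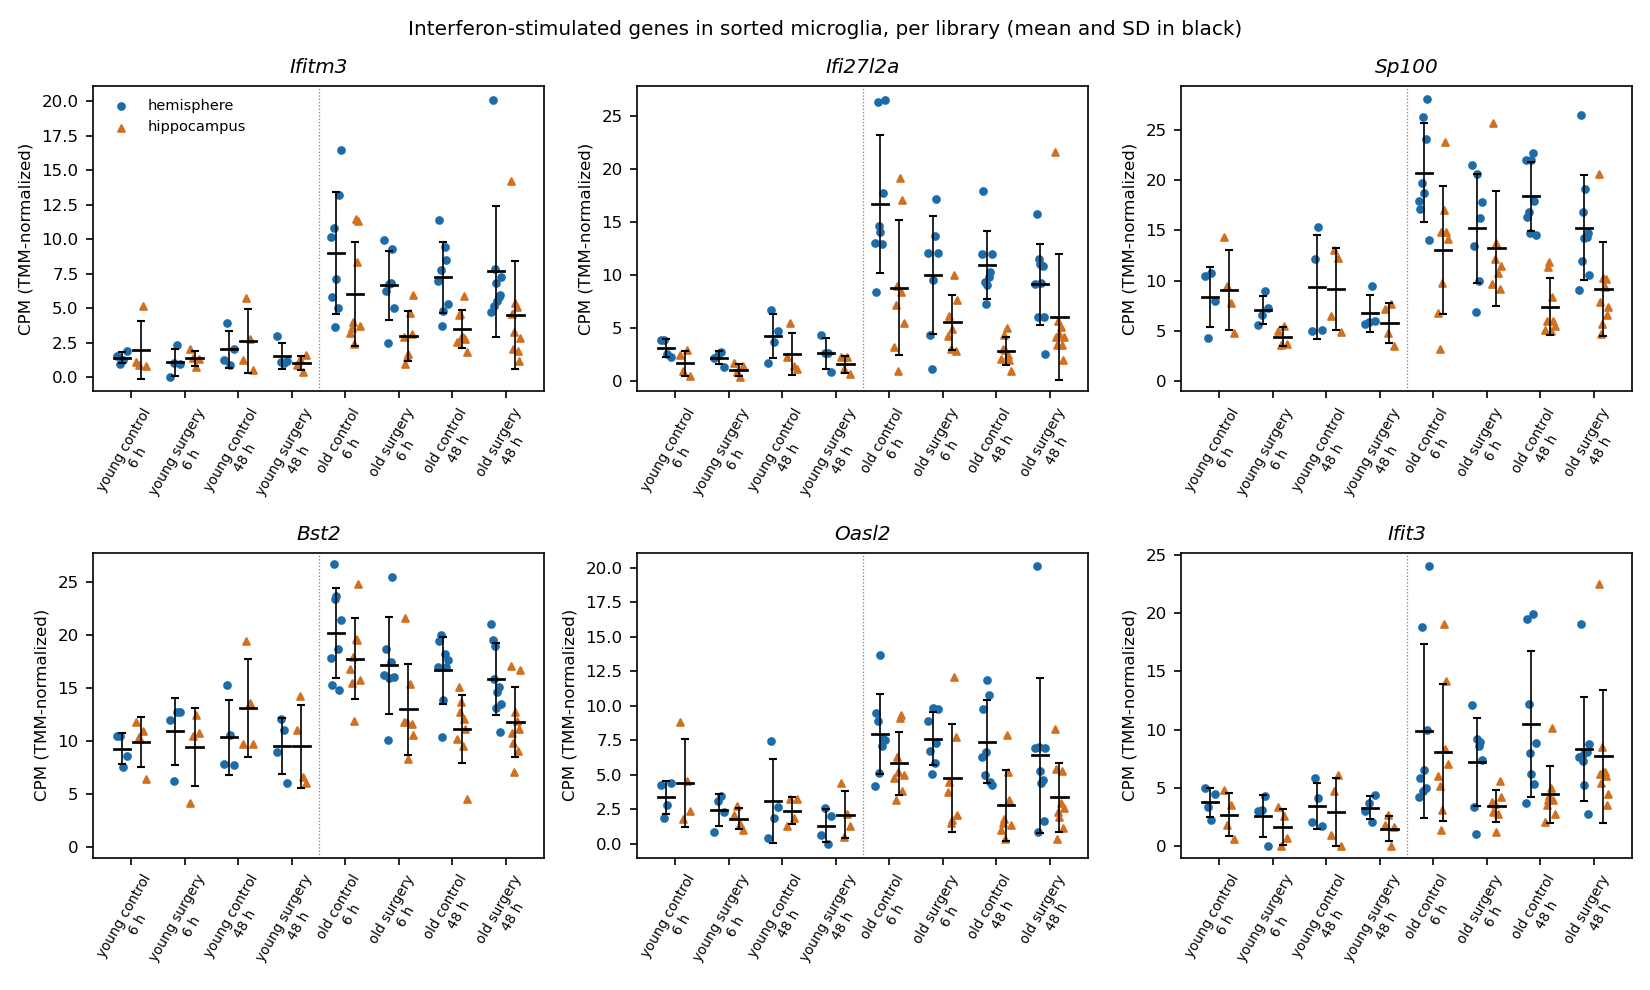
CPM of 6 members in each library by age, treatment and time (circles hemisphere, triangles hippocampus; bars, mean and SD; 4 young or 7 to 9 old animals a group). Old hemisphere Ifitm3 has group means of 6.67 to 9.04 CPM against 1.09 to 2.03 in the young, and single old libraries reach 20.1.

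Within single treatments and times, with 4 young animals a group, 3 calls were made. Among controls at 6 h in the hemisphere, Ifitm3 was 1.55, 0.952, 1.27 and 1.91 CPM in the young and 3.65 to 16.5 CPM (median 8.67) in the 8 old libraries. The Ifitm3 log2 fold change was 2.62 ± 0.51 (edgeR adjusted p = 0.0424). Ifi27l2a was 3.87, 3.81, 2.54 and 2.23 CPM in the young and 8.39 to 26.5 (median 14.3) in the old. Its log2 fold change was 2.43 ± 0.48 (edgeR adjusted p = 0.0424). These were 2 of 29 members tested, beside 0.0627% of all genes called higher and 0.0157% lower. After surgery at 48 h in the hemisphere, Ifitm3 was 3.0, 1.1, 1.06 and 1.2 CPM in the young and 4.73 to 20.1 (median 5.98) in the old, a log2 fold change of 2.18 ± 0.45 (edgeR adjusted p = 0.0458). It was the only 1 of 30 members called there, beside 0.049% of all genes called higher and 0.0653% lower. Each of these 3 calls was lost when single animals were left out, in 17 of 23, 19 of 23 and 15 of 25 refits. Over all refits, with the call kept or lost, the log2 fold changes lay between 1.88 and 2.79.

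The other 6 age comparisons called no member by edgeR. After surgery at 6 h in the hemisphere (where 0.00784% of all genes were called higher), 13 of 29 had an unadjusted p below 0.05, 12 higher and 1 lower, beside 5.96% of all genes at that threshold. DESeq2 called none there, with Ifitm3 at 2.55, Ifi27l2a at 2.22 and Oasl2 at 1.62 leading. Among hemisphere controls at 48 h (0.0163% higher, 0.0735% lower) the count was 12 of 30 beside 6.6% of all genes, and DESeq2 called none, with Oas2 at 2.42, Ifitm3 at 1.79 and Irf7 at 1.94. In the hippocampus at 6 h the counts were 12 of 28 in controls beside 8.36% of all genes (calls, 0.0365% higher, 0.0219% lower; DESeq2 called Ifi27l2a and Lgals3bp; lowest p for Lgals3bp at 1.96, Ifi27l2a at 2.39 and Trim30a at 1.43) and 6 of 28 after surgery beside 6.69% (calls, 0%; DESeq2 called none; Sp100 at 1.58, Ifi27l2a at 2.40 and Slfn2 at 1.10). In the hippocampus at 48 h they were 2 of 26 in controls beside 7.91% of all genes, a share near that of the members (calls, 0.025% higher, 0.0584% lower; DESeq2 called none; Irf1 at 0.87, Mx1 at 0.97 and Irf7 at 1.10) and 8 of 26 after surgery beside 11.3% (calls, 0.0334% higher, 0.0501% lower; DESeq2 called Ifit3; Ifit3 at 2.24, Ifi27l2a at 1.94 and Ifitm3 at 1.96). These values are log2 fold changes, old minus young, and Ifi27l2a or Ifitm3 was among the leading 3 in 5 of the 6.

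Surgery called no member at either age, time or region, by edgeR or by DESeq2. In the old hemisphere at 6 h, where 0.259% of all genes were called higher and 0.0784% lower, 3 of 29 members had an unadjusted p below 0.05, beside 8.08% of all genes at that threshold. The lowest was that of Mx1, which ran from 5.41 to 26 CPM in 8 controls (median 7.26) and from 3.25 to 5.37 in 7 operated animals (median 4.31), a log2 fold change of -1.19 (edgeR adjusted p = 0.148). In the young hemisphere at 6 h (0.0549% higher) Mx1 stood the other way, at 5.42, 2.86, 4.44 and 2.23 CPM in controls and 13.3, 5.92, 5.45 and 10.2 after surgery, a log2 fold change of 1.20 (edgeR adjusted p = 0.98). The nearest values of controls and operated animals were 5.41 and 5.37 CPM in the old, 5.42 and 5.45 in the young. How many of all genes separate in this way was not counted. The test of the difference between the ages gave -2.39 for Mx1 with an edgeR unadjusted p of 0.000258, which missed the threshold over all genes (adjusted p = 0.802; edgeR background 0%).

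The remaining values at 6 h also missed the threshold. Next to Mx1 stood Ifi35 (0.44) and Ifi27l2a (-0.72) in the old hemisphere, and Ifi204 (0.73) and Stat2 (0.70) in the young, where 1 of 29 had an unadjusted p below 0.05 beside 4.42% of all genes. The test between ages there had 3 of 29 below it beside 4.0%, with Ifi35 (0.87) and Usp18 (2.31) after Mx1. In the old hippocampus at 6 h (0.0803% higher, 0.0073% lower) 4 of 28 members were below it beside 8.28% of all genes, led by Mx1 (-0.90, adjusted p = 0.448), Ifit3 (-1.24) and Irf1 (-0.44), and 20 of 28 were negative with a median of -0.25 against 0.02 over all genes. In the young hippocampus (0.0365% higher) 3 of 28 were below it beside 7.83%, Xaf1 (-1.81), Sp100 (-1.04) and Oasl2 (-1.27), and the test between ages (0%) had 3 of 28 beside 9.29%, Stat2 (1.00), Lgals3bp (-1.45) and Xaf1 (2.16). These values are log2 fold changes, and the adjusted p-values in the hippocampus ran from 0.448 to 0.631.

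At 48 h edgeR called no gene for surgery, so its background was 0% in all 6 comparisons. DESeq2 called 1 gene lower in the old hemisphere, 3 in the young hemisphere and 1 in the test between ages there, none of them a member. In the hemisphere 1 of 30 members had an unadjusted p below 0.05 at each age, beside 5.86% of all genes in the old and 3.59% in the young. Lgals3bp in the young was 53.4, 76.4, 82.4 and 50 CPM in controls and 19.3, 33.0, 28.5 and 26.9 after surgery. Its log2 fold change was -1.28 (edgeR unadjusted p = 0.000465, adjusted p = 1), followed by Mx1 (-0.98) and Parp14 (0.80). In the old, Oas2 (-0.95), Rtp4 (-0.65) and Gbp3 (-0.70) led, and in the test between ages 2 of 30 were below it beside 4.81%, with Lgals3bp (1.56, adjusted p = 0.575), Parp14 (-1.32) and Ifi204 (-0.68) leading. In the hippocampus the counts were 2 of 26 in the old beside 3.6% of all genes (Ifi27l2a at 1.03, Irf9 at 0.40, Lgals3bp at 0.67), 1 of 26 in the young beside 6.1% (Irf1 at 0.68, Mx1 at 0.99, Ifitm3 at -1.24) and 4 of 26 for the difference beside 5.29% (Irf1 at -0.74, Ifi27l2a at 1.81, Lgals3bp at 1.3). For Ifitm3, which rose with age, the 95% intervals of the surgery effect in the old hemisphere were -1.13 to 0.25 at 6 h and -0.50 to 0.66 at 48 h.

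The surgery effect at 48 h minus that at 6 h was tested directly. In the old hippocampus (edgeR background 0%) 28 of 33 members were positive, median 0.49 against -0.02 over all genes, and 5 had an unadjusted p below 0.05 beside 6.95% of all genes. No member was called by edgeR or DESeq2, which called 3 other genes higher and 3 lower. Ifit3 led with 2.02 ± 0.69 (edgeR adjusted p = 0.47), before Ifi27l2a (1.71) and Lgals3bp (1.35). Its 8 control libraries ran from 1.35 to 19.1 CPM (median 6.54) at 6 h and from 2.04 to 10.1 (median 3.96) at 48 h, and the operated animals from 1.22 to 5.61 (median 3.63) and from 3.49 to 22.5 (median 6.23). The medians of the controls were lower at 48 h than at 6 h and those of the operated animals higher, and all 4 groups overlapped. In the old hemisphere (0.0636% higher, 0.106% lower) 2 of 33 were below 0.05 beside 7.39% of all genes, Ifi44 (2.05) and Ifi35 (-0.64), followed by Oas3 (-0.85). In the young hemisphere (0.00707% lower) there were 3 beside 4.31%, Mx1 (-2.17), Parp14 (1.53) and Stat2 (-1.10), and in the young hippocampus (0%) 1 beside 8.21%, Stat2 (1.01), followed by Lgals3bp (-1.45) and Ddx58 (0.64).

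**Figure D3:**
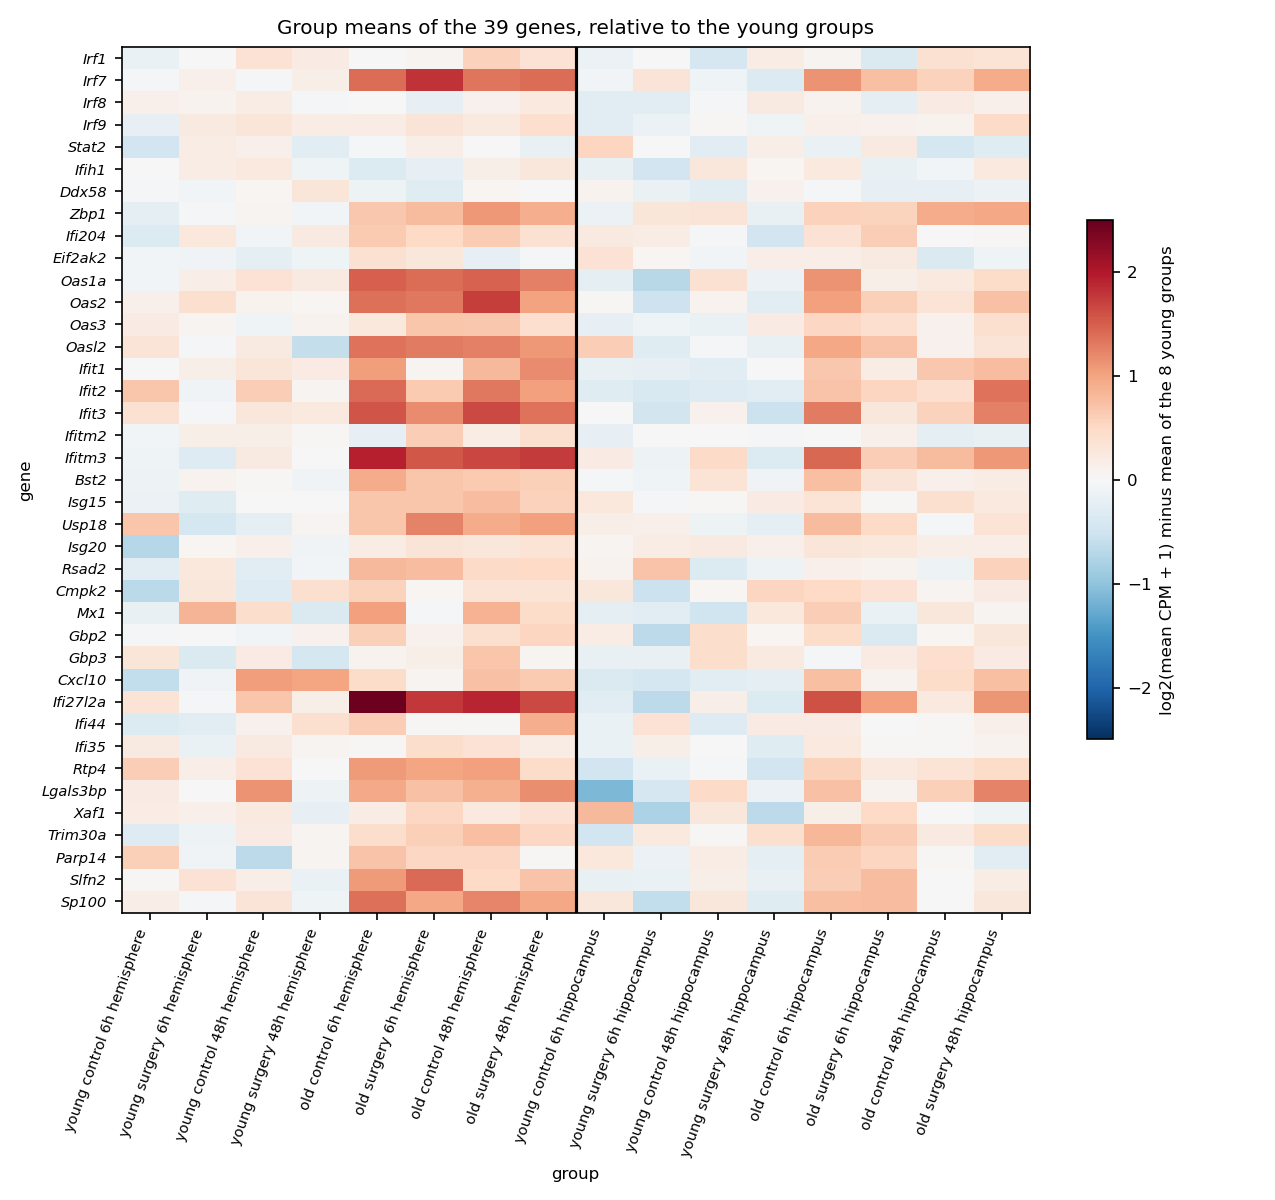
Group means of the 39 genes as log2(mean CPM + 1) minus the mean of the 8 young groups (rows, genes by role; columns, the 16 groups; colour, the difference). The highest value is that of Ifi27l2a in old hemisphere controls at 6 h (2.46) and the lowest that of Lgals3bp in young hippocampal controls at 6 h (-1.12), while Irf8, Ifih1 and Ddx58 stay pale across all columns.

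The regions were compared within animals, hippocampus minus hemisphere. In the 32 old animals 6 of 36 members tested were lower in the hippocampus (16.7%, beside 0.125% of all genes called lower and 0.0877% higher), none was higher, and 34 of 36 were negative with a median of -0.34 against -0.01 over all genes. Ifi27l2a had a median of 11.2 CPM (range 1.08 to 26.5) in the hemisphere and 4.24 CPM (range 0.917 to 21.6) in the hippocampus, lower in 27 of 32 animals, a log2 fold change of -1.14 ± 0.18 (edgeR adjusted p = 0.0005). Ifitm3 fell from a median of 6.84 to 3.25 CPM and was lower in 28 of 32 animals (-0.94 ± 0.18, adjusted p = 0.00511). Both genes nevertheless ranged widely within each region, and a few old animals stood higher in the hippocampus.

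Sp100 fell by 0.77 ± 0.13 on the log2 scale (adjusted p = 0.000621, medians 17.0 and 9.72 CPM, lower in 27 of 32 animals). Oasl2 fell by 0.95 ± 0.19 (adjusted p = 0.00687, medians 6.92 and 3.49 CPM, 25 of 32). Oas1a, at medians of 6.02 and 2.29 CPM, was lower in 28 of 32 animals with an adjusted p of 0.00195, and Slfn2 fell by 0.61 (adjusted p = 0.00869, medians 10 and 7.04 CPM, 25 of 32). All 6 were also among the 13 members that rose with age in the hemisphere (46.2% of the 13), and both comparisons use the old hemisphere libraries. Bst2 missed the threshold at -0.41 (adjusted p = 0.0664). DESeq2 called 9 members, adding Bst2, Irf7 and Oas2. Without the animals of the 5 libraries high in neutrophil markers, the Slfn2 call was lost (-0.56, adjusted p = 0.0686) and the other 5 remained.

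Isg15 in old animals had a median of 1.57 CPM in the hemisphere and 0.875 in the hippocampus, lower in 26 of 32 (-0.79, adjusted p = 0.444). Irf7 was lower in 25 of 32 (-0.88, adjusted p = 0.204) and Ifit3 in 23 of 32 (-0.64, adjusted p = 0.317), and Cxcl10 was split, lower in 16 and higher in 15. In the same comparison the microglial markers Fcrls (0.43), P2ry12 (0.35) and Siglech (0.23) were higher in the old hippocampus, and the 5 neutrophil markers tested had a median of -2.34 with no call. Beyond the refit without the animals high in neutrophil markers, the part of these markers in the regional difference was not tested.

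In the 16 young animals no member passed by edgeR, which called no gene (background 0%), or by DESeq2, which called 5 other genes higher and 13 lower. An unadjusted p below 0.05 was found for 6 of 36, all lower in the hippocampus, beside 6.41% of all genes. They were led by Rtp4 (-0.84, adjusted p = 0.538), Ifit2 (-1.34) and Lgals3bp (-0.71). Young Ifitm3 had medians of 1.22 and 1.31 CPM and was lower in the hippocampus in 7 of 16 animals, whereas young Ifi27l2a, at 2.61 and 1.38 CPM, was lower in 13 of 16. The difference between the ages was tested itself and called no member by edgeR, which called no gene (background 0%), or by DESeq2, which called 3 other genes lower. There too 6 of 36 had an unadjusted p below 0.05 beside 7.23% of all genes, led by Oasl2 (-1.0, adjusted p = 0.622), Ifitm3 (-1.02) and Bst2 (-0.45), and a difference of the regional effect between the ages was not shown.

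**Figure D4:**
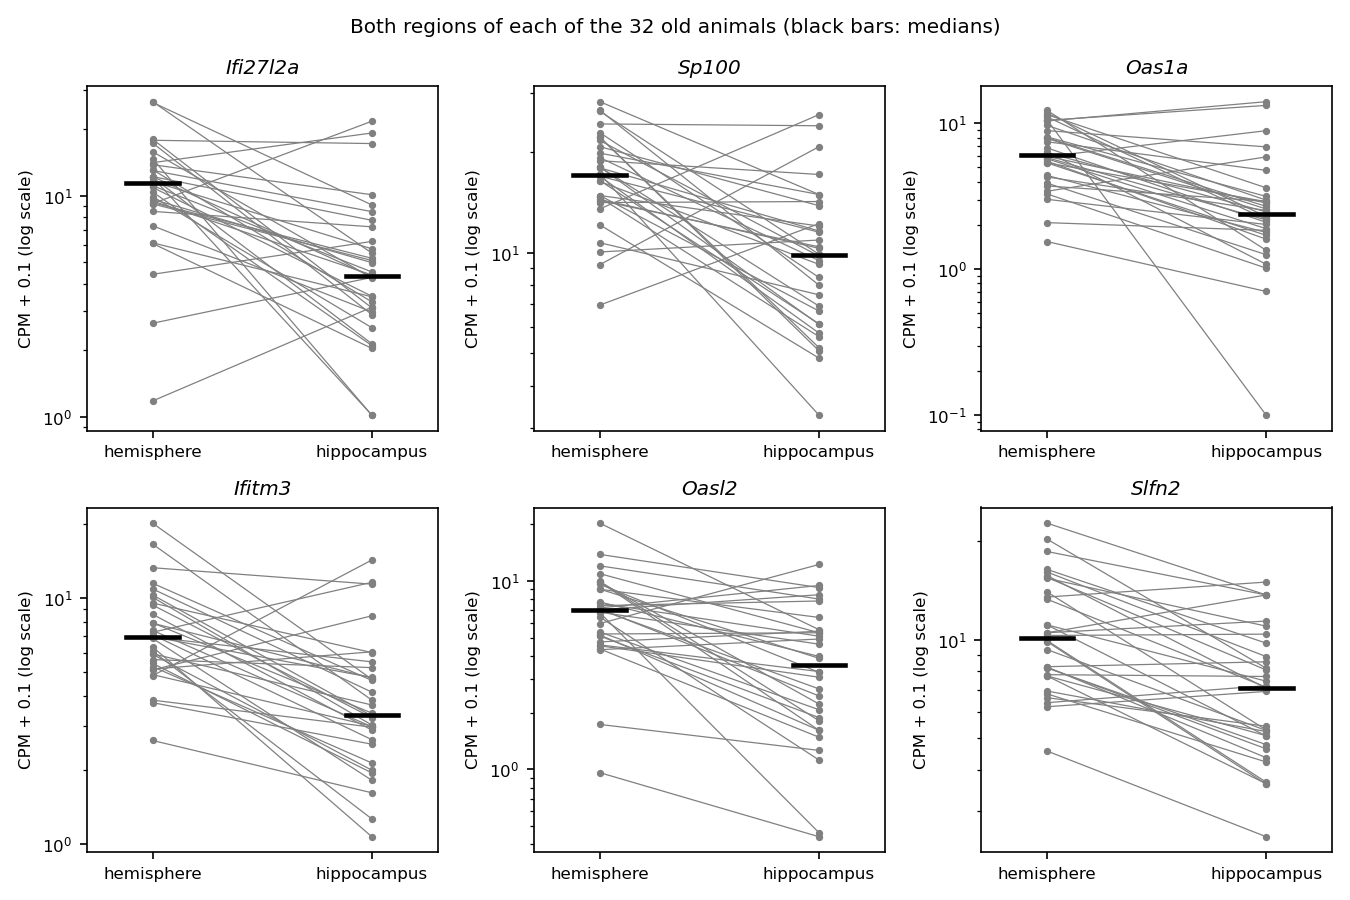
Both regions of each of the 32 old animals for 6 members (CPM + 0.1 on a log axis; each line joins the libraries of 1 animal; black bars, medians). Most lines fall from hemisphere to hippocampus, 27 of 32 for Ifi27l2a and Sp100 and 28 of 32 for Oas1a and Ifitm3.

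For 36 of 39 members in the hemisphere and 33 of 39 in the hippocampus the highest library came from an old animal, where 32 of the 48 libraries of each region were old. Old surgery 48 h replicate 1 had the highest hippocampal value for 10 members, with Ifit3 at 22.5 CPM, Ifi27l2a at 21.6, Ifitm3 at 14.2 and Lgals3bp at 185, but its hemisphere had Ifit3 at 7.64, Ifi27l2a at 9.1, Ifitm3 at 4.73 and Lgals3bp at 59.7. Old surgery 48 h replicate 2 had the highest hemisphere value for 6 members, with Ifitm3 and Oasl2 both at 20.1 CPM, and hippocampal values of 4.57 and 5.4. Old surgery 6 h replicate 6 held the highest hemisphere Irf7 (24.8 CPM) and Usp18 (16.6), in a library with stepped counts. The levels in both regions were also correlated across animals, as deviations of log2(CPM + 1) from the group means, permuted within groups. Across the 32 old animals, for Oasl2 Pearson's r was 0.462 (permutation p = 0.0128) and Spearman's rho 0.339 (permutation p = 0.0729). The r was 0.304 without the 2 farthest animals. For Ifitm3 r was 0.172 (permutation p = 0.383) and rho 0.212 (permutation p = 0.268). Across the 16 young animals Cxcl10 had the r farthest from 0, -0.657 (permutation p = 0.0287), and a rho of -0.712 (permutation p = 0.0288), with r at -0.605 without the 2 farthest animals. Of 16 such relations (8 genes, 2 ages) none passed after adjustment, the lowest adjusted p being 0.205.

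Averaged over the 39 members as mean log2(CPM + 1), a description over genes of unlike level, the young hemisphere libraries lay between 2.06 and 2.71 (median 2.27) and the old ones between 2.19 and 3.56 (median 2.89), 26 of 32 above every young one. In the hippocampus the young lay between 1.95 and 2.56 (median 2.14) and the old between 2.24 and 3.48 (median 2.51), 12 of 32 above every young one. The hippocampal mean lay below the hemisphere mean of the same animal in 27 of 32 old and 13 of 16 young animals.

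The interferons themselves were hardly counted. None of 10 interferon genes had enough counts to test. Their summed level had group medians of at most 0.376 CPM and never exceeded 2.79, and Ifnb1 had 10 counts and Ifna4 39 over all 96 libraries. A difference in interferon mRNA between ages was therefore not detectable at this depth. The receptors and their kinases, 8 of 9 tested, gave no call in either region, with medians of -0.06 in the hemisphere and 0.09 in the hippocampus. The signal transducers and other interferon regulatory factors (0 of 7 and 0 of 6 tested) and the nucleic acid sensing adaptors (0 of 13 in each region) gave no call either. Of the inhibitors, 0 of 8 passed in the hemisphere and 1 of 9 in the hippocampus, where 0.751% of all genes were called higher. The 1 was Trex1, the nuclease that clears cytosolic DNA, at 0.45 (edgeR adjusted p = 0.0308).

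A further list held 71 interferon-stimulated genes. Of all genes tested for age, 1.29% were called higher and 0.368% lower in the hemisphere. In the hippocampus these shares were 0.751% and 0.214%. In the hemisphere 5 of 59 tested rose and none fell: Axl, a receptor for dying cells, at 2.26 (adjusted p = 7.99e-06), Oas1g, a paralog of Oas1a, at 1.79 (0.00322), Ifi207 at 1.49 (0.0264), the checkpoint ligand Cd274 at 0.85 (0.00607) and the chemokine Ccl12 at 0.63 (0.00267). Axl ran from 0.476 to 15.6 CPM in the young (median 2.69) and from 0.362 to 35.5 in the old (median 14.9). In the hippocampus 3 of 59 rose and none fell: Ccl12 at 0.76 (0.0226), Rnf213 at 0.59 (0.0405) and the cytidine deaminase Apobec3 at 0.37 (0.0375). The list's medians were 0.22 and 0.21. In old animals none of its 62 tested genes differed between regions, and 14 of 62 were positive.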

How the data were processed

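The values are estimated counts per Ensembl gene in 4 deposited tables, 1 for each region and time, as the authors provided them. They are whole numbers, but a few libraries hold few counts of 1. They were therefore recorded with the unit of estimated counts, although the design had assumed plain counts, and were used as deposited. DESeq2 1.36.0 and R 4.2.1 are listed, with build mm10, in the submitters' processing notes. No source used here gives an aligner, a counter or its use of strand. Of 54532 identifiers, 54409 matched the GENCODE M21 annotation (GRCm38), which gave symbols, coordinates and exon lengths. Library totals of 1874168 to 3778939 counts limit precision for members with a few counts.

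Genes were filtered with filterByExpr (minimum count 10) and tested over the whole table with edgeR 4.0.16 (robust quasi-likelihood test, TMM scaling, R 4.3.3, limma 3.58.1). Benjamini-Hochberg adjusted p below 0.05 was a call, and p-values are two-sided. Fits took the 4 groups of a region and time, the 8 groups of a region, or all 96 libraries with the animal as a block. CPM are on TMM-scaled libraries. SE was the log2 fold change divided by the root of F, and 95% intervals are approximate, from this SE and the normal quantile. The test was tested on simulated data. Relations between regions used 100000 permutations. Alternatives were DESeq2 1.42.0, its size factors in edgeR, no count filter, no stepped libraries and the replicate number as a block. Others were only old animals numbered among the young, and each animal left out. Leaving out libraries high in neutrophil markers, and each old animal in the fits of 8 groups, were chosen after seeing the data. The members and lists were chosen with earlier results of these data known. Full values are given for members called in at least 2 comparisons of 1 family and for Ifitm3, Bst2, Isg15, Ifit3, Irf7, Ifi27l2a, Oasl2 and Cxcl10. Where no member was called, the 3 with the lowest p are named.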

Additional observations from a re-analysis of the deposited data

Results flagged for a closer look

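For 8 members (Ifitm3, Bst2, Isg15, Ifit3, Irf7, Ifi27l2a, Oasl2 and Cxcl10), single libraries that lay far from the rest of their group were sought in 128 sets of 1 gene and 1 group. In 18 sets, from 14 libraries, the highest or lowest library passed Dixon's 95% limit. That limit is passed by about 1 in 20 sets of normally distributed values. Counts as low and skewed as these need not keep that rate, so 18 of 128 cannot be set against it. In 17 of the 18 the library was high.

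In the hemisphere of old surgery 48 h replicate 2, Ifitm3 was 20.1 CPM (next 7.83), Oasl2 20.1 (next 6.99) and Ifit3 19.1 (next 8.75). In the hippocampus of old surgery 48 h replicate 1, Ifitm3 was 14.2 CPM (next 5.4), Ifit3 22.5 (next 8.48) and Ifi27l2a 21.6 (next 5.65). These 2 libraries thus stood apart in several members at once.

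Among old controls at 48 h in the hemisphere, Isg15 was 4.91 CPM in replicate 7 (next 2.8), Irf7 8.4 in replicate 6 (next 5.43), Ifi27l2a 17.9 in replicate 2 (next 12) and Cxcl10 4.61 in replicate 8 (next 2.1). In their hippocampus Ifit3 was 10.1 CPM in replicate 6 (next 4.99). Cxcl10 was 4.73 CPM in the hemisphere of old surgery 48 h replicate 1 (next 2.24) and 3.78 in the hippocampus of old surgery 6 h replicate 1 (next 0.351).

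Among young animals, Ifitm3 was 5.18 CPM in the hippocampus of control 6 h replicate 3 (next 1.1) and 3.0 in the hemisphere of surgery 48 h replicate 1 (next 1.2). Cxcl10 was 7.44 CPM in the hemisphere of control 48 h replicate 4 (next 0.783). It was 0.551, from 2 counts, in the hippocampus of surgery 6 h replicate 2. The others there were at 0, so any count would have passed the limit. Bst2 was low, at 6.26 CPM, in the hemisphere of surgery 6 h replicate 2 (next 12).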

How the results depend on the processing

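For the 27 single-gene results tried under alternatives, all 172 alternative values kept their sign, 136 kept the call and 36 lost it; of 955 refits without 1 animal, 886 kept the call, 69 lost it and none reversed. The number of members higher with age in the hemisphere, 13, was 16 with DESeq2 and 11 without a count filter. It was 7 with only old animals numbered among the young and 11 to 15 when animals were left out. The number in the hippocampus, 5, was 6 with DESeq2, 3 without a count filter and 2 without the stepped libraries. It was 1 with only old animals numbered among the young, and ranged from 4 to 6 when animals were left out. Among hemisphere controls at 6 h, the 2 calls became 4 with DESeq2 and 0 without the stepped libraries. They became 0 with only old animals numbered among the young, and ranged from 0 to 3 when animals were left out. After surgery in the hemisphere, the 1 call at 48 h became 0 with DESeq2 size factors, 4 with DESeq2 and 3 without a filter. It became 0 with only old animals numbered among the young, and ranged from 0 to 2 when animals were left out. The count of 0 at 6 h became 2 without a filter and ranged from 0 to 1. In the hippocampus DESeq2 called 2 among controls at 6 h and 1 after surgery at 48 h. Without a filter 1 member differed between the regions of young animals. The 6 regional calls in old animals were 9 with DESeq2, 7 with its size factors in edgeR and 8 without a filter, and ranged from 6 to 7 over 4 refits, each without 1 young animal; the other animals were not left out there. In each case the cause was not tested, and members with few counts are limited by depth.

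Whether replicate numbers pair the animals was not tested. In the hemisphere the mean correlation of deviations between same-numbered libraries was 0.04 at 6 h and at 48 h. Other pairs there had a mean of -0.006 at each time. In the hippocampus same-numbered libraries had means of 0.006 at 6 h and -0.02 at 48 h, against -0.001 and 0.004 for other pairs. With the replicate block, 10 members were called in the hemisphere and 1 in the hippocampus (Ifi27l2a), and 0 among hemisphere controls at 6 h.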
